A study of Mus musculus with 15 samples.

Results

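The chromatin of 10 genes of the TGF-beta and BMP signaling pathways was examined in mouse lens cells: the ligands Tgfb1, Tgfb2, Tgfb3, Bmp4 and Bmp7, the receptors Tgfbr1 and Tgfbr2, the signal transducers Smad3 and Smad7, and the target gene Id1. They are 10 of the 22342 protein-coding genes of the annotation, and all 10 were found in it. For each gene, the ChIP-seq regions that lie in the gene body or within 50 kb on either side were taken from the lists made by the authors, in coordinates of the mouse genome mm9. The 10 windows hold 1496 kb of sequence.

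ChIP-seq maps where a protein or a histone modification sits on DNA. The cells were αTN4, a line of mouse lens epithelial cells that the SV40 T antigen has transformed, infected with a lentivirus that carries either a control shRNA or an shRNA against Pax6 (Pax6 KD), the lens transcription factor. Both stable lines had been selected with puromycin for 14 days. In control cells the maps were of Pax6, RNA polymerase II (Pol2) and lysine 4 of histone H3 carrying 1, 2 or 3 methyl groups (H3K4me1, H3K4me2 and H3K4me3), in Pax6 KD cells of the H3K4 methylation marks only, and in newborn CD-1 mouse lens at 1 day of age of H3K4me2 only. Each condition has 1 library, so no value below has a replicate error, no difference was tested and no p-value is given.

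Ligands of the TGF-beta family bring together a type II and a type I receptor kinase at the cell surface. The type I receptor then phosphorylates receptor Smads (Smad2 and Smad3 for TGF-beta, Smad1 and Smad5 for BMPs), which enter the nucleus with Smad4 and act on target genes such as Id1, while Smad7 feeds back to inhibit the receptors. In the lens, BMP4 and BMP7 are known for their part in lens induction, and TGF-beta for driving lens epithelial cells toward a mesenchymal, fibrotic state. H3K4me3 is a mark of promoters, H3K4me1 of enhancers, and H3K4me2 is found at both.

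The H3K4me1 lists hold islands (enriched stretches joined over gaps) and the other lists hold peaks. The H3K4me1 list of Pax6 KD cells is shorter than that of control cells, with 18417 islands over 97.2 Mb against 38007 islands over 149 Mb. It holds 1849269 ChIP reads against 3289553. Reads per kb of islands, given below, were not scaled for depth, so a difference between the 2 conditions includes any difference in depth. The other pairs are close in length, with 66274 and 65852 H3K4me2 peaks and 14869 and 14301 H3K4me3 peaks; the lens list has 56214 H3K4me2 peaks. The peak names of the control H3K4me2 list carry a tag that refers to both replicates, although the labels give 1 sample; whether reads were pooled is not stated. Of 8 lens marker genes fixed as a list, 6 had promoter Pol2, H3K4me2 and H3K4me3 in control αTN4 cells (all but Foxe3 and Cdh1). All 8 had promoter H3K4me2 in lens. Over all protein-coding genes these shares were 46.3% and 66.8%. Of 10 markers of other eye and stromal cells, 2 had promoter Pol2 (Cd68 and Col1a1), against 48.0% of all genes. Promoter H3K4me2 lay at 3 in control αTN4 cells (Pecam1, Col1a1 and Twist1), against 58.2%. In lens it lay at 5 (Crx, Nrl, Cdh5, Col1a1 and Twist1), against 66.8%.

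A promoter is taken here as 2 kb on either side of any protein-coding transcript start of the gene, and a region counts when at least 1 bp of it lies there. Fold enrichment is the authors' value of each region over background, and a percentile ranks a region by fold within its own list. The promoters of Tgfb1, Tgfb2, Tgfb3, Tgfbr1, Tgfbr2, Smad3, Smad7 and Id1 had Pol2, H3K4me2 and H3K4me3 together in control cells, whereas those of Bmp4 and Bmp7 had none of the 3. That is 8 of 10 genes, where 46.3% of all protein-coding genes had the 3 together. Taken singly, Pol2 lay at 48.0% of all promoters, H3K4me2 at 58.2% in control cells and 57.1% in Pax6 KD cells, and H3K4me3 at 49.1% and 47.8%. All 8 genes also had promoter H3K4me2 and H3K4me3 in Pax6 KD cells. In lens, H3K4me2 was at all 10 promoters, Bmp4 and Bmp7 included, against 66.8% of all genes. Promoters with H3K4me2 in lens but in neither αTN4 condition were 11.5% of all genes, and the reverse, 3.37%, was seen at none of the 10.

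**Figure D1:**
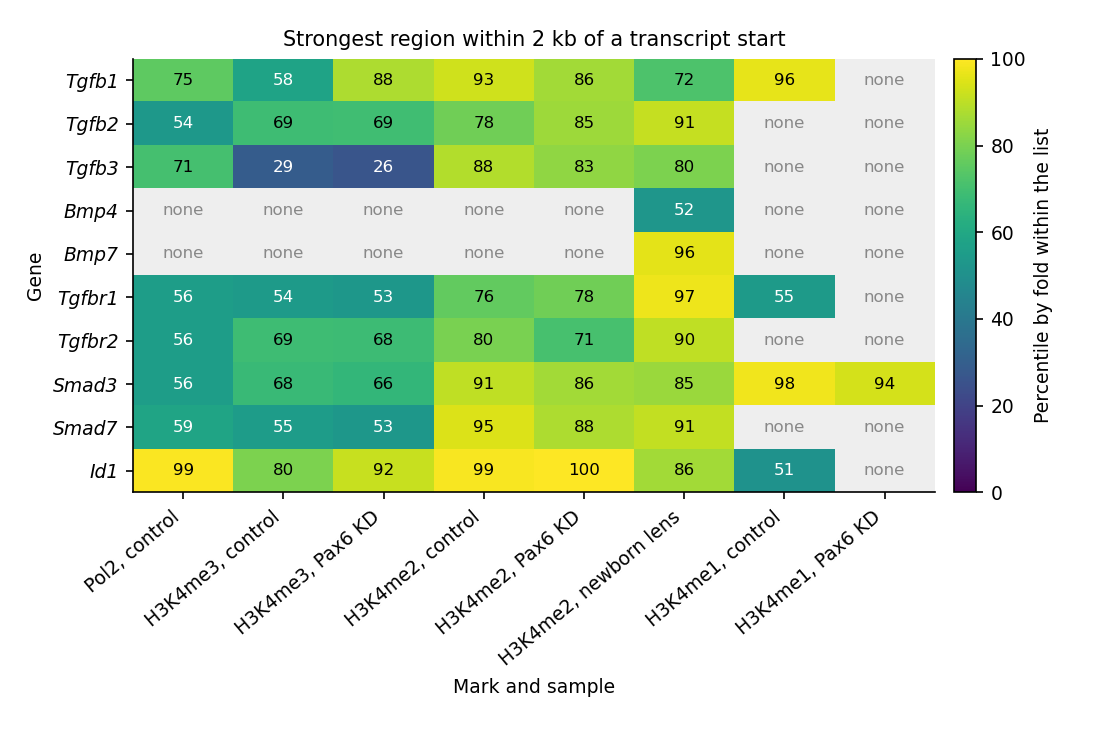
Percentile by fold enrichment, within its own list, of the strongest region within 2 kb of a transcript start of each gene (rows), for each mark and sample (columns); grey cells with "none" have no region. Bmp4 and Bmp7 have a value only in newborn lens, and Id1 has the highest Pol2 value of the 10.

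Promoter H3K4me1 was less common and fell in number between the conditions. Tgfb1, Tgfbr1, Smad3 and Id1 had it in control cells (4 of 10, against 36.0% of all genes), and only Smad3 of the 10 in Pax6 KD cells (against 16.8%). Over all genes with promoter H3K4me1 in control cells, 43.5% also had it in Pax6 KD cells.

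No Pax6 peak lay in any of the 10 windows. In the whole list of 504 Pax6 peaks, 3.48% of protein-coding genes (777) had one within 50 kb of the gene body, and 0.255% had one at the promoter. The nearest to a member was 55.3 kb from Id1, the next 210 kb from Bmp4, 486 kb from Tgfb2, 724 kb from Bmp7 and 735 kb from Tgfbr1, and the other 5 genes lay between 1140 kb (Tgfb1) and 25393 kb (Tgfb3) from one. Among the lists used here, Pax6 was mapped in control αTN4 cells only. The paper also reports Pax6 peaks of newborn lens, more than in αTN4 cells, and none called in Pax6 KD cells. The lens Pax6 peaks were not examined here.

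The peak nearest Id1, with a fold enrichment of 10.5 (percentile 89.7), lies within Bcl2l1, 37.5 kb from the nearest protein-coding start, that of Bcl2l1. It sits in a control H3K4me1 island of 28000 bp with 33.0 reads per kb and a Pax6 KD island of 49400 bp with 28.0 reads per kb. H3K4me2 was also there in both conditions, at a fold of 12.3 in control and 8.52 in Pax6 KD cells, and there was no Pol2, H3K4me3 or lens H3K4me2 peak. The island crosses the edge of the Id1 window, so it is the longest H3K4me1 island counted for Id1 although the Pax6 peak itself is outside. The sequence of this Pax6 peak is shown because it is the one closest to any of the 10 genes. Capitals are on CAGAC, the word that Smad3 and Smad4 bind. TTCACGC, the core of the Pax6 paired domain site, is not in it. Of all whole Pax6 peaks, 40.3% held CAGAC and only 4.76% held TTCACGC.
Pax6 peak nearest Id1, chr2:152618440-152618661, plus strand: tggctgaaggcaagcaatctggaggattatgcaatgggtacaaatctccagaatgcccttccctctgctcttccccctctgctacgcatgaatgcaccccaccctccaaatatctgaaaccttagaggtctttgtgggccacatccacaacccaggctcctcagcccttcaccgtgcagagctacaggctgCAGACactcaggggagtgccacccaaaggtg

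Tgfb1, Tgfb2 and Tgfb3 encode the TGF-beta ligands. Tgfb1 (chromosome 7, 26472021 to 26490096, plus strand) lies among 6 other promoters (B9d2, Bckdha, Ccdc97, Exosc5, Hnrnpul1 and Tmem91), and 5 of the 10 Pol2 and 5 of the 6 control H3K4me3 peaks in its window lie at these. At its own promoter the Pol2 peak had a fold of 16.4 (percentile 75.3). The promoter H3K4me3 peak had a fold of 20.1 in control cells, percentile 57.9, and 23.1 in Pax6 KD cells, percentile 87.7. This was a gain of 29.8 percentile points, where the median over the 10581 genes with promoter H3K4me3 in both lists was -1.69 (quartiles -8.72 to 4.13), and 99.1% of those genes had a smaller gain. The width of the peak was similar, 2324 bp in control and 2162 bp in Pax6 KD cells. The H3K4me2 peak over the same start moved the other way, from percentile 92.8 to 86.2.

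Upstream of Tgfb1, an H3K4me1 island of 800 bp at the promoter had 32.5 reads per kb in control cells, among the densest in the 10 windows, and no counterpart in Pax6 KD cells. That density rests on 26 ChIP reads, beside 8 input reads. Of the 7 control islands in the window, 2 overlapped a Pax6 KD island. One of them, reaching past the end of the gene and centred 22.2 kb from the start, spanned 10800 bp with 31.7 reads per kb in control and 8600 bp with 23.6 reads per kb in Pax6 KD cells. It holds H3K4me2 peaks in all 3 samples, the strongest in control cells with a fold of 17.0, and a Pol2 peak of fold 6.11.

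Tgfb2 (chromosome 1, 188447065 to 188529871, minus strand) had a promoter Pol2 peak of fold 10.5 (percentile 53.5). Its promoter H3K4me3 ranked alike in both conditions, at percentiles 68.8 and 69.3, and its H3K4me2 rose in rank from 78.2 to 85.5, the largest rise in H3K4me2 rank of the 8 promoters. In lens the H3K4me2 peak at the same start reached percentile 91.1. The gene body and the sequence past its end carried long H3K4me1 islands: one of 15000 bp in an intron, 29.0 kb from the start, with 29.4 reads per kb, and one of 11400 bp between genes, 121 kb from the start, with 33.3 reads per kb. Both were kept in Pax6 KD cells, at 20.4 and 15.2 reads per kb in the 2 pieces of the first and 20.6 in the second. Of the 10 control islands, 6 were kept and 4 were not. The 3 upstream of the promoter were all among those not kept. A430105J06Rik, a long non-coding transcript, starts 43.4 kb upstream of Tgfb2 with Pol2, H3K4me3 of both conditions and lens H3K4me2 at its start. The same regions lie at the promoter of the protein-coding neighbour Rrp15, so they cannot be told apart by gene.

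Tgfb3 (chromosome 12, 87397694 to 87419991, minus strand) had the weakest promoter H3K4me3 of the 8 genes, at percentile 29.2 in control and 26.3 in Pax6 KD cells. Its 3 promoter H3K4me3 peaks in control cells stood against 1 of 1630 bp in Pax6 KD cells, which overlapped 2 of the 3 and not the strongest. Its promoter H3K4me2 was strong by comparison, at percentiles 88.3, 83.3 and 80.2 in control, Pax6 KD and lens, and so was Pol2, with a fold of 14.9 (percentile 70.6). No H3K4me1 island lay in the gene itself. The 6 control islands of the window were all in or at the start of the neighbours Ttll5 and 1700019E19Rik, and 2 of them were kept.

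Bmp4 and Bmp7 encode BMP ligands, and were the only members with promoter H3K4me2 in lens and in neither αTN4 condition. Bmp7 (chromosome 2, 172693513 to 172765822, minus strand) had 10 H3K4me2 peaks in lens, over 10.7 kb or 6.20% of its window. The promoter peak was 4294 bp wide with a fold of 28.7 (percentile 95.8), and next to it in the first part of the gene lay a peak of 2625 bp with a fold of 14.8, 5.87 kb from the start. In control αTN4 cells the window had a single H3K4me2 peak of 251 bp (fold 5.75), 25.1 kb upstream, inside a single H3K4me1 island of 1400 bp with 25 reads per kb. Neither was in the Pax6 KD lists, neither overlapped a lens peak, and the window had no Pol2 or H3K4me3 peak. Like Bmp4, Bmp7 had promoter H3K4me2 in lens and no promoter region of any list in αTN4 cells. The 250 bases before the Bmp7 start are shown for this pattern. They hold 27 CpG dinucleotides and 1 CAGAC word, 59 bases upstream of the start and read on the opposite strand (capitals).
Bmp7 promoter, chr2:172765823-172766072, minus strand: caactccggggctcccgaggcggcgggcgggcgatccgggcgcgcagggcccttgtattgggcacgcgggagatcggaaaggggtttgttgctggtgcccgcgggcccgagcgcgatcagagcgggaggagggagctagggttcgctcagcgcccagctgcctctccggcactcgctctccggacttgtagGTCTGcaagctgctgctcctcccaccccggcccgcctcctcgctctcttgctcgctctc

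Bmp4 (chromosome 14, 47003195 to 47010344, minus strand) had αTN4 regions, but inside the gene and not at its protein-coding starts. In control cells a Pol2 peak from 47006510 to 47007445 had a fold of 11.4 (percentile 57.2), with its summit 3.50 kb downstream of the 5′-most start. Over it lay an H3K4me2 peak of fold 16.0 (percentile 82.9) and the strongest of 3 H3K4me3 peaks (percentile 57.4). In Pax6 KD cells the same stretch had 3 H3K4me2 peaks, with folds of 11.9 to 13.5, and 3 H3K4me3 peaks, the strongest at percentile 48.3. The start of Gm15222, a non-coding transcript on the opposite strand, is at 47007194, under the Pol2 and H3K4me2 peaks.

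In lens, the same stretch of Bmp4 had H3K4me2 with a fold of 18.2 (percentile 76.0), and further peaks lay where αTN4 cells had none. One covered the Bmp4 start with a fold of 6.58, one was 1.67 kb downstream with a fold of 7.11, and one was 7.82 kb upstream with a fold of 7.85. Bmp4 had no H3K4me1 island in either condition, alone among the 10 genes. The length covered by H3K4me2 in lens was 2.49 times that in control αTN4 cells for Bmp4 and 42.6 times for Bmp7, and below that in control cells for each of the other 8 (0.33 to 0.94 times). Over all genes the median was 0.834.

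**Figure D2:**
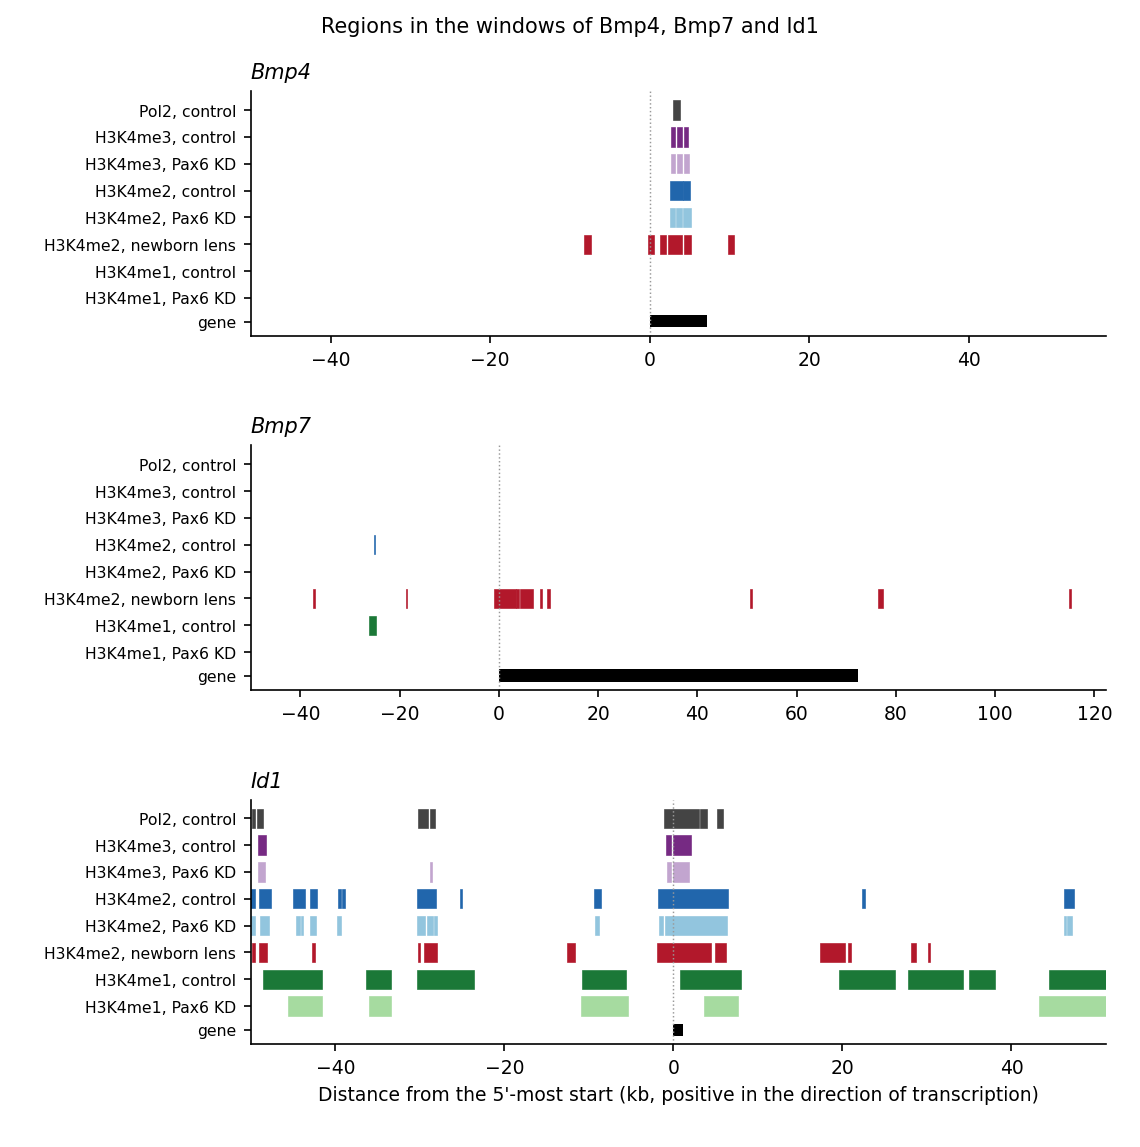
Regions of each list (rows, coloured bars drawn to scale) in the windows of Bmp4, Bmp7 and Id1 against distance from the 5′-most start in kb; the black bar is the gene and the dotted line its start. Lens H3K4me2 covers the starts of Bmp4 and Bmp7 where αTN4 cells have no region, the αTN4 regions of Bmp4 lie inside the gene, and around Id1 the lists overlap at the promoter.

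Tgfbr1 and Tgfbr2 encode the type I and type II TGF-beta receptors. Their Pol2 peaks had the same fold of 11.0 (percentile 55.6), and their promoter H3K4me3 kept its rank, from 54.3 to 53.1 for Tgfbr1 and from 68.8 to 68.4 for Tgfbr2. The strongest promoter H3K4me2 peak of Tgfbr2 went from percentile 80.0 to 70.8, the largest drop among the 8 promoters. Tgfbr1 had a promoter H3K4me2 peak on each side of its start, of which the upstream one went from 76.0 to 74.6 and the downstream one from 67.1 to 78.3. Within the lens list their promoter H3K4me2 peaks were at percentile 97.5 for Tgfbr1 (fold 30.3) and 90.4 for Tgfbr2.

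H3K4me1 in control cells covered 6.37% of the Tgfbr1 window and 4.92% of that of Tgfbr2, near the 5.90% of the median gene. Tgfbr1 (chromosome 4, 47366094 to 47427803, plus strand) had 3 control islands, 1 touching its promoter and the others in or at the start of the neighbour Col15a1; only 1 in Col15a1 was kept. Tgfbr2 (chromosome 9, 115993415 to 116084383, minus strand) had 2, one in an intron 22.5 kb from the start with 16.3 reads per kb, and one 45.2 kb upstream with 12.1 reads per kb, the lowest of all 54 control islands in the windows. Neither was kept, yet H3K4me2 peaks in both stretches were: folds went from 11.3 to 12.8 and from 7.82 to 7.99 in the intron, and from 7.82 to 3.29 upstream at the summit 43.6 kb away.

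The strongest control H3K4me2 peak in the Tgfbr1 window was not at its promoter but between genes, past the end of Tgfbr1 and 84.7 kb from its start. It had a fold of 17.1 in control cells (percentile 85.8), 14.6 in Pax6 KD cells (76.4) and 32.4 in lens (98.9), with no H3K4me1 island and no Pol2 peak. A small H3K4me3 peak of 249 bp (fold 6.04) lay there in control cells only. The sequence around the lens summit is shown as the one site outside a promoter in this window shared by all 3 samples. It holds 8 CpG dinucleotides and none of the 4 words searched, and so has no capitals.
Tgfbr1 downstream site, chr4:47450675-47450875, plus strand: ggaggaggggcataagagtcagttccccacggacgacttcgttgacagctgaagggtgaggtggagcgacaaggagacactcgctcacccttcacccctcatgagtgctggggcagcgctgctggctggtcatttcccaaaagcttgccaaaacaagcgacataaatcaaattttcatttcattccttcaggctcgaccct

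Besides CAGAC and TTCACGC, the words were GGCGCC, a GC-rich site that Smads bind at BMP targets, and TGANTCA, which AP-1 binds. They were searched on both strands, and in the printed sequences no word overlaps another. In promoters of 300 bases (250 before to 50 after the start), CAGAC lay in 48.5% of all genes and in Bmp7, Id1 and Tgfb2, GGCGCC in 14.5% and in Smad7, Tgfbr1 and Tgfbr2, TGANTCA in 6.79% and in Tgfbr2, and TTCACGC in 1.33% and in Smad3. The same words lay in 40.3%, 2.18%, 22.6% and 4.76% of whole Pax6 peaks, which have a median width of 182 bp. The Tgfbr2 promoter is shown because it alone of the 10 holds TGANTCA (25 bases upstream of the start), beside GGCGCC (48 bases upstream). Pol2 and H3K4me2 in control cells and H3K4me2 in lens covered it whole. In Pax6 KD cells both words lay in a gap between H3K4me2 peaks, one ending at 116084279 and the next beginning at 116084513.
Tgfbr2 promoter, chr9:116084384-116084633, minus strand: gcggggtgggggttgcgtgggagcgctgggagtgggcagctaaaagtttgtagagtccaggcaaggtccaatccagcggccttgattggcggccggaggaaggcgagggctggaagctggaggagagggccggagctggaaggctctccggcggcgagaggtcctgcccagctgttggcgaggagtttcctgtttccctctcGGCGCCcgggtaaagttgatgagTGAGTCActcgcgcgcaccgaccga

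Smad3, a receptor Smad of TGF-beta signaling, had the most regions of the 10 genes, in the longest of the 10 windows (211.2 kb). Its window (chromosome 9, gene from 63494574 to 63605801, minus strand) held 32 H3K4me2 peaks in control cells, 30 in Pax6 KD cells and 18 in lens. H3K4me1 covered 41.0% of it in control and 33.6% in Pax6 KD cells, more than in 96.8% of all genes in control cells. At the promoter, Pol2 had a fold of 11.0, H3K4me3 was at percentiles 67.7 and 66.3, and H3K4me2 at 90.6, 86.2 and 84.9 in control, Pax6 KD and lens.

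Within the Smad3 gene H3K4me1 islands of control cells covered much of the sequence, the longest being 19800, 16800 and 11400 bp, each with 24.5 to 26.0 reads per kb. Each of these 3 was in 2 pieces in Pax6 KD cells, with 14.8 to 19.5 reads per kb. Of the 9 control islands 8 were kept, the most of any of the 10 genes. On the log2 scale their reads per kb changed by -0.66 to 0.10, with a median of -0.50, against a median of -0.32 over all 17559 kept islands. The 250 bases before the Smad3 start are shown because they hold TTCACGC, read on the opposite strand 194 bases upstream (capitals). No Pax6 peak lay within 14263 kb of this gene. A Pol2 peak and a lens H3K4me2 peak covered these bases whole. The control H3K4me2 peak over the start ended at 63605880, short of the word, and the Pax6 KD peaks nearest to it ended at 63605737, inside the gene, and began at 63606091, upstream of the printed bases.
Smad3 promoter, chr9:63605802-63606051, minus strand: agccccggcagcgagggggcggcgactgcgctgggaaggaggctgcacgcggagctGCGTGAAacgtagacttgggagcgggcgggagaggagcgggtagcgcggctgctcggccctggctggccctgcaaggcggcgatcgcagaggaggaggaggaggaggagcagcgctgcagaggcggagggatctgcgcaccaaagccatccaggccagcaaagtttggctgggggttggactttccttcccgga

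Smad7, the inhibitory Smad, lies on chromosome 18 from 75527183 to 75555589, plus strand, with no other protein-coding promoter in its window. A non-coding transcript on the opposite strand, RP24-263P17.1, starts 0.441 kb upstream of it under a Pol2 peak, so the Pol2 peaks there cannot be told apart by gene. H3K4me2 covered 25.3% of the window in control, 20.7% in Pax6 KD cells and 22.05% in lens, the most of the 10 genes in each. In control cells 2 peaks of 9943 and 9964 bp covered most of the gene body. In Pax6 KD cells the first was in 2 pieces, of 4802 and 4514 bp, and the second in 4, and the percentile of the promoter peak went from 94.6 to 87.8. The H3K4me3 peak over the start, 6106 bp in control cells, was likewise in 3 pieces in Pax6 KD cells, while its rank was near constant (55.3 and 53.1). The H3K4me1 island of the gene, 22600 bp with 21.5 reads per kb, became 2 islands of 10400 and 12400 bp with 16.3 and 16.7 reads per kb.

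Smad7 also had a marked site 24.2 kb upstream, between genes. There, H3K4me2 had a fold of 14.9 in control cells over 4253 bp (percentile 80.0), 10.4 in Pax6 KD cells over 2165 bp (64.3) and 34.8 in lens over 1834 bp (99.6), the strongest lens H3K4me2 peak in the 10 windows. A Pol2 peak of fold 6.36 and 2 weak H3K4me3 peaks lay at the site in control cells, and H3K4me3 peaks also in Pax6 KD cells. Its H3K4me1 island, 2800 bp with 18.9 reads per kb, was not kept. A short island of 1200 bp, 43.0 kb downstream of the start, had a fold of 18.1, higher than nearly every other island of the control list (percentile 99.97), and was not kept. That fold rests on 34 ChIP reads and 4 input reads, and the island had 28.3 reads per kb.

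**Figure D3:**
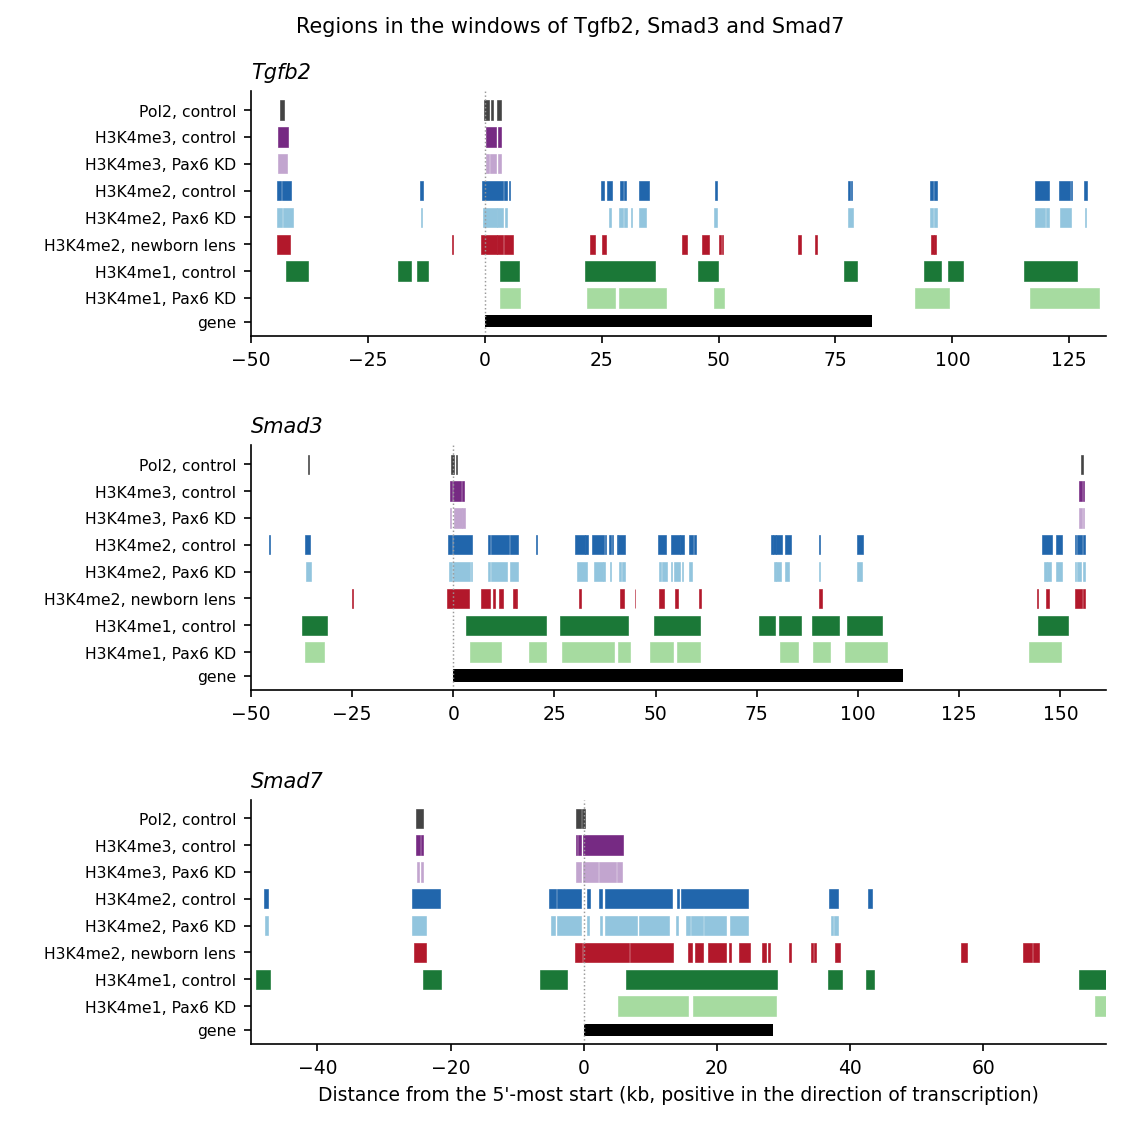
Regions of each list (rows, coloured bars drawn to scale) in the windows of Tgfb2, Smad3 and Smad7 against distance from the 5′-most start in kb; the black bar is the gene and the dotted line its start. H3K4me1 and H3K4me2 fill much of the Smad3 and Smad7 gene bodies, and several long control regions, such as the 22600 bp island of Smad7, are in 2 or more pieces in Pax6 KD cells.

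Id1, an inhibitor of basic helix-loop-helix factors and a direct target of BMP Smads, had the strongest promoter Pol2, H3K4me2 and H3K4me3 of the 10 in αTN4 cells. Id1 is 1.16 kb long (chromosome 2, 152561987 to 152563146, plus strand) and its Pol2 peak of 4139 bp covers it whole, with a fold of 51.6 (percentile 99.5). The other 7 promoters with Pol2 had folds of 10.5 to 16.4. H3K4me2 over Id1 was 8282 bp wide with a fold of 26.0 in control (percentile 99.0) and 7371 bp with a fold of 38.0 in Pax6 KD cells (99.9), and 6428 bp at percentile 86.1 in lens. Promoter H3K4me3 was at percentile 80.3 in control and 91.7 in Pax6 KD cells, a gain in rank of 11.5 points that was larger than in 90.1% of genes. Its fold was lower in Pax6 KD cells, 25.1 against 29.0 in control. The median fold of the whole list was also lower, 13.1 against 17.4. Id1 and Tgfb1 were the only members whose H3K4me3 rank moved by more than 3 points; the other 6 moved by -2.84 to 0.52.

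H3K4me1 covered 51.4% of the Id1 window in control cells, the most of the 10 genes and more than in 99.0% of all genes, and 23.9% in Pax6 KD cells. Of 9 control islands 5 were kept. One of them reaches the promoter from the 3′ side, with 7200 bp and 26.5 reads per kb in control cells. In Pax6 KD cells it was 4000 bp with 26.8 reads per kb, and it began 3614 bases past the start, so that the promoter was no longer counted as having H3K4me1. A stretch 1130 to 991 bases upstream of Id1 is shown because it holds GGCGCC (1099 bases upstream) and 3 CAGAC words (1034, 1018 and 1006 bases upstream) under Pol2 and H3K4me2 of control cells and under lens H3K4me2. In Pax6 KD cells one H3K4me2 peak ended at 152560795 and the next began at 152560956, so that GGCGCC and the start of the first CAGAC were under neither. H3K4me3 did not reach the stretch.
Id1 upstream, chr2:152560857-152560996, plus strand: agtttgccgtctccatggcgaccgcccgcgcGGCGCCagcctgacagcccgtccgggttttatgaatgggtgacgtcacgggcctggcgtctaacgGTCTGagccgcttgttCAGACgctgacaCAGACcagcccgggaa

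Over the 10 windows, H3K4me1 islands covered 300.2 kb (20.1%) in control and 187.5 kb (12.5%) in Pax6 KD cells. The median gene of the 10 had 19.8% and 8.62% covered, against 5.90% and 1.70% for the median protein-coding gene. All 9 genes with H3K4me1 in control cells had less in Pax6 KD cells, the ratio running from 0.82 (Smad3) and 0.81 (Tgfb2) through 0.63 (Smad7), 0.48 (Tgfb1), 0.46 (Id1), 0.37 (Tgfb3) and 0.33 (Tgfbr1) to 0 (Tgfbr2 and Bmp7). Their median of 0.46 was close to the 0.477 of all genes. H3K4me2 covered 163.0 kb in control, 134.3 kb in Pax6 KD cells and 125.4 kb in lens, with a median ratio of Pax6 KD to control of 0.82 over the 10 genes and 0.881 over all genes.

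**Figure D4:**
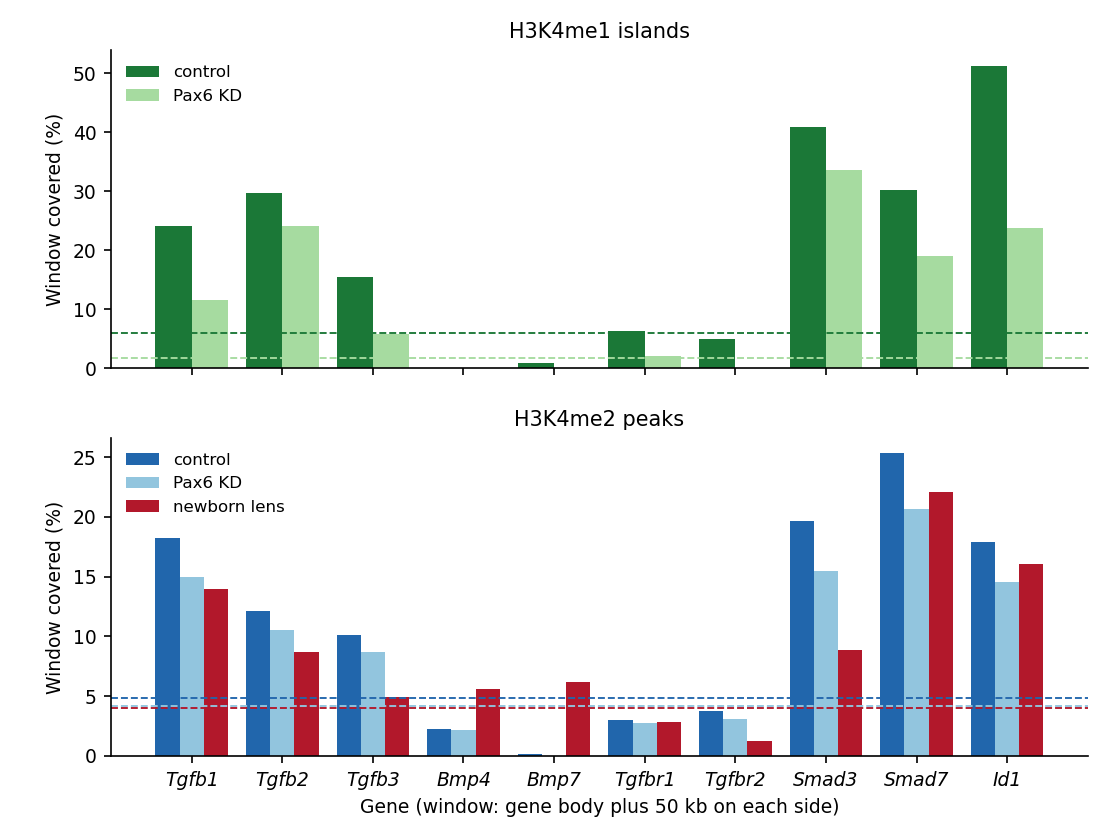
Percent of each gene's window covered by H3K4me1 islands (top) and H3K4me2 peaks (bottom) in each sample; dashed lines are the medians over all protein-coding genes in the colour of the sample. Every gene with H3K4me1 in control cells has a lower bar in Pax6 KD cells, with Id1 going from 51.4% to 23.9%, and only Bmp4 and Bmp7 have more H3K4me2 in lens than in control cells.

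Of the 54 control H3K4me1 islands in the windows, 26 overlapped a Pax6 KD island (48.1%, 95% Wilson interval 35.4 to 61.1, counting error only), against 46.2% of all control islands. Outside promoters it was 22 of 41 (53.7%), against 47.4% of all. The control list was then cut to the length of the whole Pax6 KD list, to the 18417 islands with the most ChIP reads. In this setting 24 of 30 were kept (80.0%), against 72.7% of all. Kept islands had more reads and were longer by the median in the whole control list too, so such a cut favours them. The share kept near these genes was thus close to that of the genome under either setting, and it rose for both when the lists were made equal. All 30 Pax6 KD islands in the windows overlapped a control island (93.1% of all).

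The islands that were kept were denser and longer by the median, though not in every window. The 26 kept had a median of 23.6 reads per kb and 6700 bp, the 28 not kept 18.2 reads per kb and 2900 bp, and over the whole control list the medians were 22.7 and 4200 bp for kept and 18.9 and 2600 bp for not kept. Reads per kb of the kept islands changed by a median of -0.41 on the log2 scale (quartiles -0.56 to -0.13), against -0.32 (-0.54 to -0.09) over all kept islands. By the deposited fold over input it was -0.52 against -0.43, and after subtraction of the scaled input reads -0.53 against -0.55, so that the order of the members and all islands depended on the measure. Among single islands, an intronic one of Tgfb2 48 kb from the start rose by 0.57, though the Pax6 KD island overlaps it at one end only and lies mostly beyond it, and the long ones of Tgfb2 fell by 0.67 and by 0.69.

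**Figure D5:**
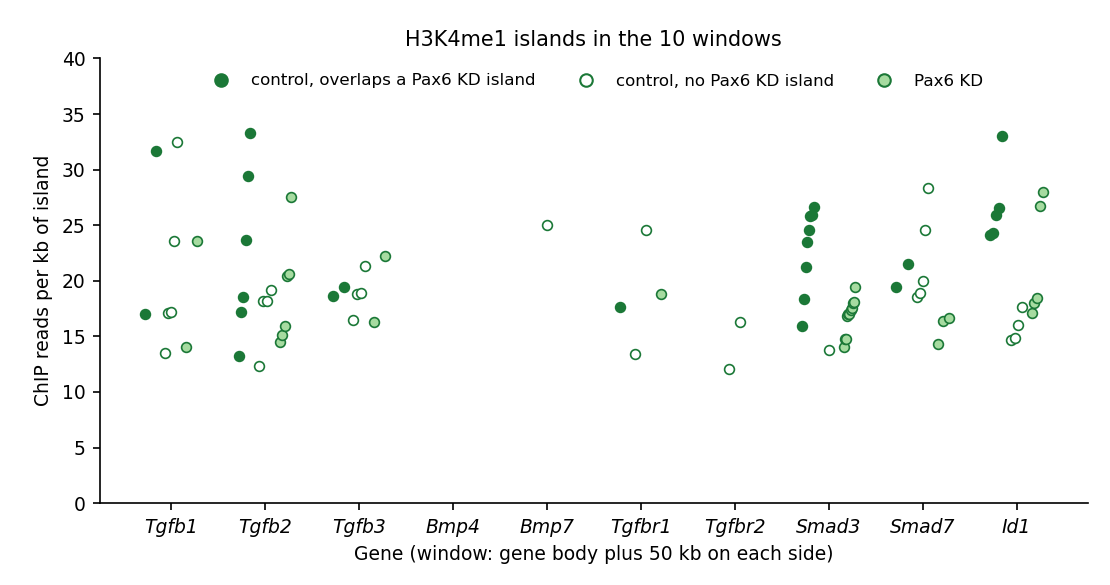
ChIP reads per kb of each H3K4me1 island in the window of each gene; filled dark points are control islands that overlap a Pax6 KD island, open points control islands that do not, and light points Pax6 KD islands. The open points have a lower median than the filled ones (18.2 against 23.6), but in Tgfb1, Tgfb3, Tgfbr1 and Smad7 the densest control island is open. In Smad3 8 of 9 control islands are filled, and the Tgfbr2 and Bmp7 windows hold no Pax6 KD island.

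Of the 110 control H3K4me2 peaks, 92 overlapped a Pax6 KD peak (83.6%, 75.6 to 89.4), against 82.5% of all control peaks. At the members' own promoters it was 17 of 17 (94.7% of all promoter peaks), and outside promoters 60 of 77 (77.9%, against 76.8%). In the other direction, 115 of 117 Pax6 KD H3K4me2 peaks overlapped a control peak (92.7% of all), 20 of 20 at own promoters (98.3% of all promoter peaks). Of the 34 H3K4me3 peaks, 30 were kept (88.2%, against 89.9% of all), and 31 of 32 Pax6 KD peaks overlapped a control peak (97.3% of all), with 14 of 14 at own promoters (97.9%). The peaks and islands near these genes were more often in several pieces in Pax6 KD cells: 23 of the 92 kept H3K4me2 peaks (25%, against 12.9% of all kept) overlapped 2 or more Pax6 KD peaks, as did 5 of the 26 kept H3K4me1 islands (19.2%, against 6.14%), 3 of them in Smad3. For H3K4me3 it was 2 of 30 (6.67%, against 5.88%). The kept H3K4me1 islands here were longer than those of the whole list (median 6700 against 4200 bp). The H3K4me2 peaks here include 2 of Smad7, of 9943 and 9964 bp, where the median of the control list was 865 bp. The part of length in the pieces was not tested for either mark.

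Of the same 110 control H3K4me2 peaks, 54 overlapped a newborn lens peak (49.1%, 39.9 to 58.3), against 41.3% of all. Every one of the 17 at the members' own promoters was shared (88.8% of all promoter peaks), and 22 of 77 outside promoters (28.6%, 19.7 to 39.5, against 19.4%). In the other direction, 56 of 102 lens peaks overlapped a control αTN4 peak (54.9%, 45.2 to 64.2, against 45.4%), at own promoters 12 of 18 (75.0% of all promoter peaks), and outside promoters 31 of 67 (46.3%, 34.9 to 58.1, against 27.4%). The genes were unlike in this: outside promoters, 9 of 12 lens peaks were shared in the Smad3 window, 8 of 16 in that of Smad7 and 5 of 12 in that of Tgfb2, and 0 of 9 in that of Bmp7. With one gene left out in turn the share ran from 40% (without Smad3) to 53.4% (without Bmp7). Several of the shared lens peaks of Smad7 lie under the same control peak, of 9964 bp. Peaks of this kind are not independent, and the intervals do not allow for it.

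A list of 52 other genes of the pathways was read in the same way at promoters. Pol2 lay at 33 of them (63.5%, against 48.0% of all genes). H3K4me2 lay at 43 in control, 44 in Pax6 KD cells and 50 in lens (82.7%, 84.6% and 96.2%, against 58.2%, 57.1% and 66.8%), H3K4me3 at 35 and 33 (67.3% and 63.5%, against 49.1% and 47.8%), and H3K4me1 at 29 and 19 (55.8% and 36.5%, against 36.0% and 16.8%). By role, with the same 48.0% over all genes, Pol2 lay at 1 of 10 ligands (Inhbb), 6 of 10 receptors, 4 of 5 Smads, 10 of 12 inhibitors, 3 of 5 extracellular regulators and 9 of 10 targets. Among the ligands of the members, the 3 TGF-beta genes had promoter Pol2 and the 2 BMP genes did not. Of the 52, 7 had promoter H3K4me2 in lens with no H3K4me2 in either αTN4 condition and no Pol2, near the 11.5% of all genes with H3K4me2 in lens alone: the ligands Nodal, Bmp2, Bmp3 and Bmp6, the receptor Bmpr1b, the BMP inhibitor Nog and the extracellular regulator Ltbp2. Promoter H3K4me3 was present in control and absent in Pax6 KD cells at Inhba, an activin subunit, and Chrd, a BMP inhibitor, where the control peaks were weak (fold 5.34, percentile 5.86, and fold 4.91, percentile 3.18). Over all genes with promoter H3K4me3 in control cells, 96.8% also had it in Pax6 KD cells.

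A Pax6 peak lay within 50 kb of 4 of the 52, Eng, Smad4, Tgif1 and Ltbp1, where 3.48% of all genes had one. The one near Tgif1, a repressor of Smad target genes, was the closest to a pathway promoter, 5.64 kb upstream of it, and weak, with a fold of 4.75 (percentile 6.75). It lay on a Pol2 peak of fold 5.21, on H3K4me1 islands with 27.0 reads per kb in control and 22.7 in Pax6 KD cells, and on H3K4me2 peaks of fold 9.53 and 5.81. The peak of Ltbp1, which binds latent TGF-beta, was in an intron 299.7 kb from the start with a fold of 6.96, on H3K4me1 islands with 27.9 and 21.0 reads per kb and H3K4me2 peaks of fold 9.27 and 4.44. The peak near Eng, a TGF-beta co-receptor, had a fold of 6.44 and lay within Ak1, 11.3 kb from the Eng start, on an H3K4me1 island of Pax6 KD cells (18.9 reads per kb) where control cells had none. The peak near Smad4 had a fold of 8.33 and lay on a control H3K4me1 island with 21.2 reads per kb. That island was kept, but no Pax6 KD island reached the Pax6 peak itself. H3K4me2 peaks of fold 6.90 in control and 11.1 in Pax6 KD cells also lay at the Pax6 peak. The Tgif1 peak is shown as the Pax6 peak closest to a promoter of the pathway. It holds 3 CAGAC words in its 141 bases, 2 on the strand shown and 1 on the other. It holds no TTCACGC, which was in only 4.76% of whole Pax6 peaks.
Tgif1 Pax6 peak, chr17:71208485-71208625, minus strand: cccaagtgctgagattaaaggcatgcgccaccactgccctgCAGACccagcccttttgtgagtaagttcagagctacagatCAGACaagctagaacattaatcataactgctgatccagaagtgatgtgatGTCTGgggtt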

How the data were processed

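The members, the list of other pathway genes, the markers and the words were chosen with earlier results of these data known. Per the study, Bowtie was used for alignment to mm9, MACS2 for peaks and SICER for H3K4me1 islands, at default settings, without blacklisted regions. Versions are not given in the sources used here. Peaks have a deposited fold, a ratio to background, and deposited −log10 p and q. Islands have a deposited count of ChIP reads and one of control reads, beside a deposited fold, p-value and FDR. The depth of the peak libraries is unknown; that of H3K4me1 is known only as reads in islands. The RNA-seq samples were not analysed here. One label field names the Pax6 and Pol2 antibodies the other way round, and these samples were assigned by title.

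Regions were joined to GENCODE vM1 (51684 protein-coding transcripts of 22342 genes); the plan named the study's promoter distance, and RefSeq starts were not used here. Peak positions are of summits, island positions of midpoints. Overlap is at least 1 bp, a control region that overlaps a Pax6 KD region is called kept, and its change in reads per kb sets the summed reads over the summed width of those Pax6 KD islands against its own. Shares have 95% Wilson intervals for counting error. All 10 members are named; other pathway genes are named for a Pax6 peak within 50 kb, a promoter H3K4me3 call that differs between conditions, or lens-only promoter H3K4me2, and neighbours where a count depends on them. The functions for overlap, covered length and Wilson intervals were tested on simulated data. The function for the change in reads per kb was not. Sequences are from mm9; none is printed from chromosome 18. Software was samtools 1.23.1, pysam 0.24.0, Python 3.11.15, pandas 2.3.3, NumPy 2.4.6 and matplotlib 3.10.9.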

Additional observations from a re-analysis of the deposited data

How the results depend on the processing

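No paired analysis was possible because each condition has 1 library and no result comes from a test; leaving out a replicate was not possible for the same reason. Of 58 alternative values for 15 results, 51 stayed within the limits set for a change and none reversed. With 10 kb on each side of the gene in place of 50 kb, the windows held 25 control H3K4me1 islands in place of 54, and 66, 71 and 67 H3K4me2 peaks in control, Pax6 KD and lens in place of 110, 117 and 102; fewer bases are searched. With H3K4me1 lists of equal length, 30 control islands were compared and the share kept was 80.0% in place of 48.1%. When at least 50% of a control H3K4me2 peak had to be covered by lens peaks, the share shared with lens was 35.5% in place of 49.1%, and 35.3% of all control peaks. Wilson intervals do not cover variation between cultures or animals, and they treat each region as independent. A region absent from a list can hold signal under the caller's threshold.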
